A study of Rousettus aegyptiacus with 32 samples.

Results

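Within the brain of the Egyptian fruit bat, Rousettus aegyptiacus, a small set of stretches of open chromatin, called cortex-only regions here, was present in every cortical library and absent from every striatal and cerebellar list. Open chromatin was read by ATAC-seq, in which a transposase inserts adapters where DNA is accessible, and the deposited intervals are the places where a peak caller found such insertions enriched. The regions were chosen by −log10 p and by where intervals were listed, in 2 steps. The 50000 intervals with the highest −log10 p of each of the 8 cortical libraries were merged into 72747 regions, of which 30896 (42.5%) held such a top interval in all 8 libraries and are called core cortical regions here. Of the 30896, 30185 overlapped a deposited interval of any strength in at least 1 of the 4 striatal and 2 cerebellar lists. The remaining 2.30% overlapped none and are the cortex-only regions. All 20 lists together merge into 856519 regions. Their presence and strength in cortex and their absence from striatum and cerebellum therefore follow from how they were picked and are given as a description.

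The 8 cortical libraries came from 4 areas of 2 adult males, bats 1 and 3: secondary auditory cortex (2A), the orofacial (ofM1) and wing (wM1) parts of primary motor cortex, and premotor cortex (PreM). The same 2 males gave the caudate and putamen libraries of the striatum, the cerebellum libraries, and the libraries of liver, pectoralis muscle and testis, so each of the 10 tissues had 1 library per animal. No treatment or genotype is named in the labels, and the series addresses regulatory elements and proteins that evolved in parallel with vocal learning. The samples were bulk tissue, so that a smaller share of cells with an open region and a lower accessibility per cell cannot be told apart.

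As background, most regulatory elements that differ between brain regions are enhancers, which lie between genes or in introns and act on promoters at a distance, whereas promoters themselves tend to be open in many tissues. The projection neurons of the cortex are glutamatergic and arise from the dorsal telencephalon, those of the striatum are GABAergic and arise from the ventral telencephalon, and the granule cells of the cerebellum come from the hindbrain.

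The lists ran down to different depths, which bears on what absence means. The 20 lists held 155151 to 238945 separate intervals and covered 44.0 to 126.9 Mb. The caudate list of bat 1 stopped at a −log10 p of 12.3, whereas the liver and muscle lists ran down to 2.00, so a weak caudate interval could go unlisted. Of the core regions, 1730 had no striatal interval, and 41.1% of those also had no cerebellar interval. Another 521 core regions missed the definition through an interval in just 1 of the 6 striatal and cerebellar lists. In 369 of the 521 that list was cerebellum of bat 3, where the median fold enrichment over the caller's background was 2.74, and each of the other 5 lists accounted for 21 to 49. A further 392 regions had no striatal or cerebellar interval and a top interval in 7 of the 8 cortical libraries.

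At the threshold itself there was no gap. The member nearest to it, at NW_023416284.1:134076492-134077376, ranked 49979 in ofM1 of bat 1 with a fold of 6.15, against 7.24 to 11.7 in the other 7 cortical libraries. The next, at NW_023416311.1:75321174-75321980, ranked 49953 in wM1 of bat 3. The 2 regions just outside ranked 50032, at NW_023416307.1:145699278-145700140, and 50036, at NW_023416288.1:75870441-75871880. The second of these had the same 6.15-fold enrichment in ofM1 of bat 1 as the member just inside. The size of the set follows the threshold: 37 regions met the definition with the top 25000 intervals per library and 4575 with the top 100000.

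The cortex-only regions were narrower and weaker, in the median, than the other core regions. Their median width was 1064 bases (interquartile range 897 to 1298, full range 359 to 2427), against 1259 bases for the other 30185 core regions. Fold enrichment in the weakest of the 8 libraries had a median of 6.55 (range 3.44 to 11.7) in cortex-only regions, against 7.40 in the other core regions. The 8 summits of a region spread over a median of 34 bases in cortex-only regions and 23 bases in the other core regions, and fell within 100 bases of each other in 84.4% and 85.1% of these classes. The rank of the weakest library had a median of 41256 of 50000 in cortex-only regions, against 25710 in the other core regions. Most of the other core regions, 27050, were open in both striatum and cerebellum. The median width was 1164 bases for the 1019 core regions with an interval in cerebellum and none in striatum and 1147.5 bases for the 2116 with one in striatum and none in cerebellum, their weakest-library folds had medians of 7.05 and 6.35, and their weakest-library ranks had medians of 37177 and 39294. In fold the cortex-only regions lay between these 2 classes.

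The level varied between the bats of an area as well as between areas. The median fold over the cortex-only regions was 11.0 in bat 1 and 7.83 in bat 3 for 2A, 7.65 and 8.17 for ofM1, 9.44 and 7.94 for wM1, and 7.15 and 8.55 for PreM. In every one of the 8 libraries this lay below the median of the other core regions, which ran from 8.35 in PreM of bat 1 to 11.8 in 2A of bat 1. In 560 of the cortex-only regions the highest fold was that of 2A of bat 1, which also had the highest fold at the other core regions. Folds of different libraries carry no common scaling. Ranks, without that limit, also placed the cortex-only regions below the other core regions, with medians of 23816 to 31227 against 15323 to 15666. The order of the libraries differed from that in fold. PreM of bat 1, the lowest in median fold, had a median rank of 25550, behind only 2A of bat 1. Among the strongest 10000 intervals of a library there were 36 cortex-only regions in 2A of bat 1, 18 in PreM of bat 1 and at most 2 in each of the other 6 libraries, whereas 32.7% to 33.1% of the other core regions ranked there.

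**Figure D1:**
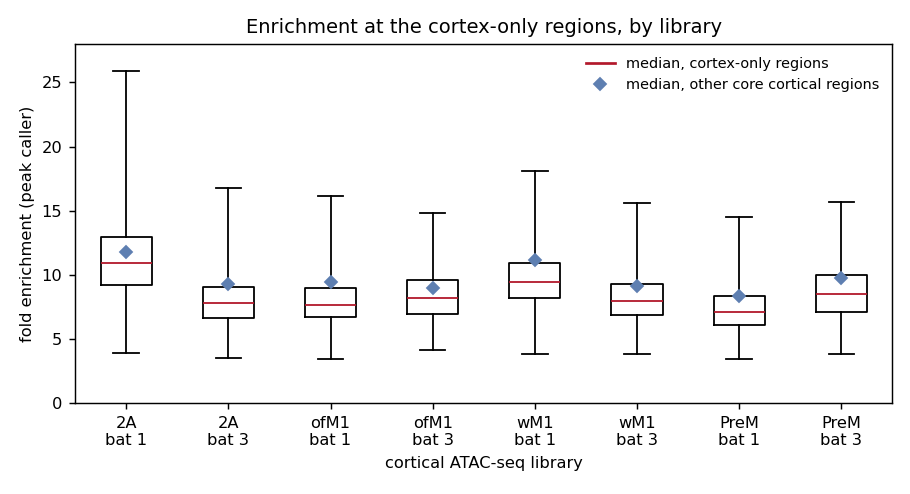
Fold enrichment at the cortex-only regions in each of the 8 cortical ATAC-seq libraries. Boxes span the quartiles, whiskers the full range, red lines mark the median of the cortex-only regions and blue diamonds the median of the other core cortical regions, which lies above the red line in all 8 libraries.

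The 10 regions with the highest −log10 p in their weakest cortical library are given here by position. Gene names come from the RefSeq table of assembly mRouAeg1.p, which gives no scaffold: its runs of genes were matched to the scaffolds of the peak lists by the fit of gene ends to core regions. In the 18 runs of at least 100 genes, 40.8% to 63.2% of genes had an end within 100 bases of a core region on the scaffold chosen, against 4.96% to 9.55% on the next best. The last gene of each of these runs ended at 99.7% to 100.008% of the position of the last deposited interval of that scaffold. The match placed 19038 of 19070 protein-coding genes. Since the table gives no strand or exons, either end of a gene was used for distances, and regions were not placed in exons, introns or untranslated regions. The nearest gene need not be the gene that a region acts on.

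The strongest region, NW_023416291.1:45253958-45254958, lay within LOXL2, a lysyl oxidase that crosslinks extracellular matrix. Its fold was 20.1 and 12.9 in 2A, 10.7 and 12.1 in ofM1, 15.4 and 12.4 in wM1, and 11.9 and 13.5 in PreM, for bats 1 and 3 in turn. Outside the brain it had an interval of 3.05-fold in liver of bat 3 and none in the other 5 lists. In cortex, 2A and wM1 of bat 1 were the highest.

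The region at NW_023416295.1:96002551-96004058 lay within LOC107509851, 0.179 kb from the nearest end of any protein-coding gene. It was the only one of the 10 with no interval in any non-brain list. Its cortical folds ran from 9.27 to 14.7 with a median of 12.1. The region at NW_023416295.1:166375043-166376464 lay within SYN3, which encodes synapsin III, a protein of synaptic vesicles. Its cortical folds ran from 8.91 to 14.3 with a median of 10.3, and it had weak intervals in liver of bat 3 (2.00-fold) and muscle of bat 1 (2.17-fold). A region at NW_023416306.1:150487405-150488440 lay 6.56 kb from SIPA1L1, a postsynaptic regulator of Rap GTPases. Its folds ran from 7.47 to 13.6 with a median of 12.6, the lowest being PreM of bat 1.

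The other 6 lay outside the nearest gene, at 17.5 to 292 kb. The highest cortical median, 14.0-fold (11.7 to 21.0), was that of NW_023416311.1:32905494-32906722, which lay 41.8 kb from GRAMD2B and had 1 non-brain interval, of 2.31-fold in liver of bat 1. The region at NW_023416306.1:133814007-133814949 lay 73.8 kb from SMAD6, an inhibitory SMAD that restrains BMP signalling. It had a cortical median of 13.3-fold (10.3 to 19.4) and non-brain intervals in 4 lists, the strongest of 5.93-fold in muscle of bat 3. The region at NW_023416306.1:117397995-117399532 lay 17.5 kb from GOLM2, a Golgi membrane protein, with a cortical median of 12.9-fold (9.44 to 13.6). CA8, an IP3 receptor-binding relative of the carbonic anhydrases best known from Purkinje cells, was the nearest gene to NW_023416290.1:14902131-14903778, at 45.2 kb. That region had a cortical median of 10.1-fold (9.39 to 14.4). The regions nearest to ZNF703, a transcriptional corepressor, and FSTL5, a secreted follistatin-like protein, lay at NW_023416286.1:41965090-41965982 and NW_023416291.1:49979963-49980870 and had cortical medians of 9.85-fold and 9.17-fold.

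**Figure D2:**
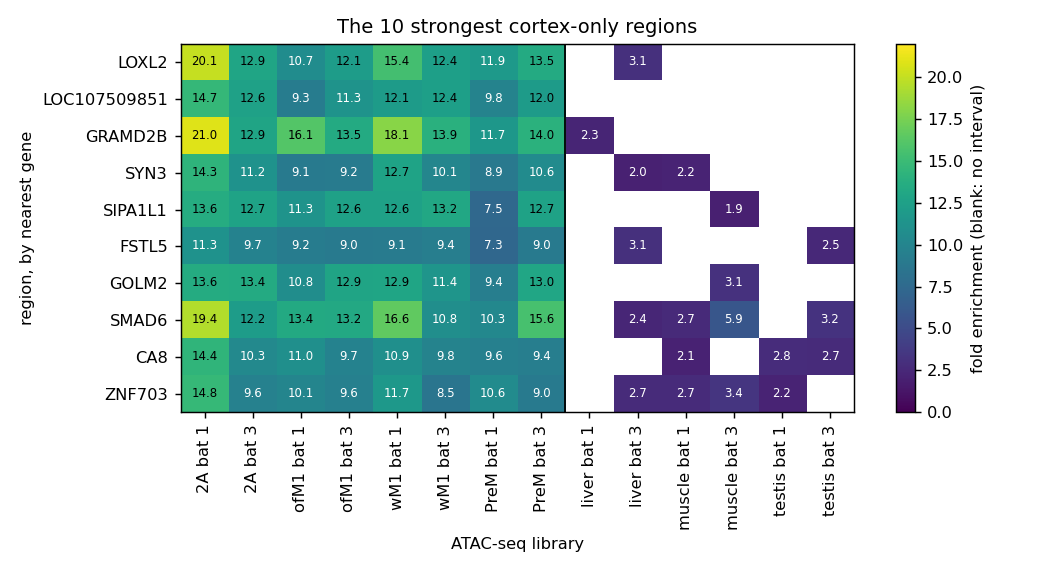
Fold enrichment of the 10 strongest cortex-only regions, named by the nearest gene, in the 8 cortical libraries (left of the line) and the 6 non-brain libraries (right of it). Blank cells have no deposited interval; the highest cortical value is 21.0 and the highest non-brain value 5.93, and the cortical values were used to choose the regions.

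Liver, muscle and testis were not used to choose the regions. The question there was whether regions that are open in cortex and in no other brain part are open elsewhere in the body. Of the cortex-only regions, 114 (16.0%) had an interval in liver of bat 1 and 180 (25.3%) in liver of bat 3, 139 (19.5%) and 129 (18.1%) in muscle of bats 1 and 3, and 130 (18.3%) and 207 (29.1%) in testis of bats 1 and 3. Among the other core regions the shares were 40.5% and 67.5% in liver, 82.4% and 76.6% in muscle, and 75.2% and 73.6% in testis, in the same order of bats. The groups did not overlap: the highest share in cortex-only regions was below the lowest share in the other core regions. By tissue, the mean share of cortex-only regions was 20.7% ± 6.56 in liver, 18.8% ± 0.995 in muscle and 23.7% ± 7.66 in testis (SD, n = 2 bats each), and the values of the 3 tissues overlapped.

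Over the 6 libraries the share averaged 21.1% ± 5.03 in cortex-only regions and 69.3% ± 14.9 in the other core regions (SD, n = 6). The difference of -48.2 ± 14.2 percentage points was negative in 6 of 6 libraries, with a 2-sided exact sign-flip permutation p of 0.03125 over 64 arrangements, the smallest that 6 libraries can give. The 6 libraries are 3 tissues of the same 2 bats, so they are not 6 independent animals. The other core regions differ from the cortex-only ones in strength (above) and in nearness to genes (below). The part of strength in the difference was not tested. By the choice of regions, the other core regions also each had an interval in striatum or cerebellum, and the cortex-only regions had none. A lower share in further tissues can follow from that choice, and its part in the difference was not tested. Among regions over 1 kb from any gene end, the mean shares were 20.9% for 687 cortex-only regions and 58.5% for 19834 other core regions. In a window of 300 bases around the summit they were 12.5% and 63.5%.

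Most of the other core regions were open in both striatum and cerebellum, and the gap to the rest was smaller. Set against the 1019 core regions with an interval in cerebellum and none in striatum, which averaged 29.4%, the difference of the cortex-only regions was -8.33 points. Against the 2116 with an interval in striatum and none in cerebellum, which averaged 32.1%, the difference was -11.0 points. Against the 27050 with intervals in both, which averaged 73.7%, it was -52.6 points. Each of these 3 differences, computed after the data were seen, was negative in 6 of 6 libraries, with an exact sign-flip p of 0.03125. This p is the smallest that 6 libraries can give, and the 6 are 3 tissues of the same 2 bats. The classes were split by intervals in striatum and cerebellum. A lower share in further tissues can follow from that choice, and its part in these differences was not tested. The 3 comparisons share the cortex-only regions and were not adjusted for each other.

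**Figure D3:**
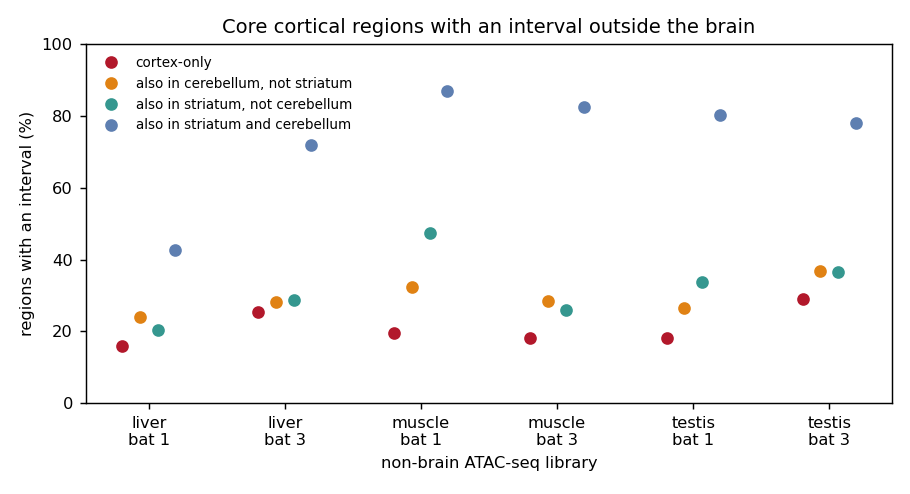
Percent of core cortical regions with a deposited interval in each of the 6 non-brain ATAC-seq libraries, by class of region. The cortex-only regions, at 16.0% to 29.1%, are the lowest of the 4 classes in every library.

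Where a cortex-only region did have a non-brain interval, it was mostly weak and in 1 animal. The median fold there was 1.85 and 2.63 in liver, 2.41 and 2.34 in muscle, and 2.31 and 2.75 in testis of bats 1 and 3, against 2.12 to 6.97 over the same 6 libraries at the other core regions. Both bats had the interval in 34 cortex-only regions (4.78%) for liver, 47 (6.61%) for muscle and 80 (11.3%) for testis, against 33.5%, 71.0% and 65.7% of the other core regions. Among the top 50000 intervals of a non-brain library there were 15 to 40 of the cortex-only regions (2.11% to 5.63%), against 21.8% to 67.4% of the other core regions. In all, 239 cortex-only regions (33.6%) had an interval in none of the 6 lists, against 4.55% of the other core regions. Another 218 had 1 list, 134 had 2, 79 had 3, 31 had 4, 8 had 5 and 2 had all 6. In 571 (80.3%) no tissue had the interval in both bats.

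A few members were strong outside the brain, and were picked out after their values were seen. A region at NW_023416295.1:135177528-135178505, 9.80 kb from TMEM117, reached 14.3-fold in muscle of bat 3, against 7.17- to 14.7-fold in the cortical libraries. At NW_023416290.1:58073015-58074168, 6.40 kb from FAM135B, testis reached 6.14-fold in bat 1 and 7.63-fold in bat 3, against 8.14- to 17.2-fold in cortex. The highest liver value was 6.73-fold in bat 3, at NW_023416286.1:63493975-63495203, 136 kb from GPC5. The 2 regions with an interval in all 6 lists were nearest to NAP1L1, a nucleosome assembly protein, and KIF20B, a mitotic kinesin. Their non-brain folds ran from 2.09 to 4.61 and from 1.77 to 2.58, against cortical folds of 6.66 to 12.7 and 5.09 to 8.13.

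The cortex-only regions lay far from gene ends. Only 24 of them (3.38%) were within 1 kb of an end of a protein-coding gene, against 34.2% of the other core regions, and 143 (20.1%) were within 10 kb, against 50.9%. The median distance was 42.4 kb in cortex-only regions and 9.35 kb in the other core regions. At over 100 kb there were 195 cortex-only regions (27.4%), against 14.1% of the other core regions, and 294 (41.4%) lay inside a gene span, against 65.0%. This was shared with the other classes that lack a brain part. Core regions with a cerebellar and no striatal interval had 2.06% within 1 kb and 41.6% over 100 kb, and those with a striatal and no cerebellar interval had 5.34% and 21.6%. The cortex-only regions lay between these classes in both shares. Regions are not replicates of a condition, so these shares carry no test.

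**Figure D4:**
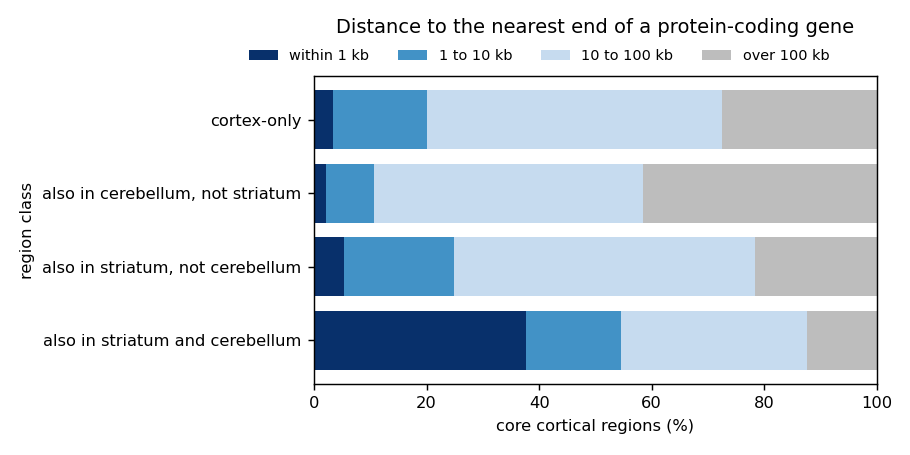
Distance from a core cortical region to the nearest end of a protein-coding gene, as the percent of regions in each distance band, for the 4 classes. The darkest band, within 1 kb, holds 3.38% of the cortex-only regions and 37.7% of those also open in striatum and cerebellum.

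The 24 regions at gene ends included some of the stronger members. One at NW_023416289.1:26638572-26640504 overlapped an end of KCNG4, a modulatory potassium channel subunit, with 10.2- to 16.5-fold enrichment in cortex and intervals of 2.00- and 2.29-fold in testis of bats 1 and 3. Another at NW_023416289.1:10259074-10260606 overlapped an end of CHST4, a carbohydrate sulfotransferase, with 7.85- to 18.2-fold enrichment and no non-brain interval. Of the 24 regions, 7 had no interval in any non-brain list. The KCNG4 and CHST4 regions were chosen after their values were seen.

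The regions were spread over the genome. They lay on 18 scaffolds, and the median distance to the next member was 661 kb. Another member began within 100 kb for 81 regions and within 10 kb for 8, which formed 4 pairs, nearest to FAM13A, GPC5, SCN8A and LOC107515281, named after their positions were seen. SCN8A encodes a voltage-gated sodium channel of neurons, and its 2 regions began 2.99 kb apart. On 17 of the 18 scaffolds, 1.17% to 3.09% of the core regions were cortex-only. The exception was NW_023416312.1, with 3 of 568 (0.528%).

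The cortex-only regions had 647 different nearest genes among the 19038 placed (3.40%). Of these genes, 592 had 1 cortex-only region, 48 had 2 and 7 had at least 3. Genes nearest to a member were long, with a median span of 68.9 kb, against 17.2 kb over all placed genes, and a long gene or a wide gap between genes collects more regions of any kind. CDH11, a classical cadherin of cell adhesion, had 4 cortex-only regions and 16 other core regions. A further 5 genes had 3 each: GPC5, a cell-surface glypican, OPCML, a GPI-anchored adhesion molecule of neurons, AEBP2, a cofactor of Polycomb repressive complex 2, ARAP2, a GTPase-activating protein for Arf proteins, and LOC107515281.

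At OPCML, all 3 regions lay inside the gene, at cortical folds of 6.23 to 12.03. The 3 nearest to ARAP2 lay 1163 to 1449 kb from it.

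Marker lists showed which named genes these regions lay nearest to. Of 34 placed marker genes of cortical excitatory neurons, 9 (26.5%) were nearest to a cortex-only region, and 11 (6.63%) of the 166 core regions nearest to these 34 genes were cortex-only, against 2.30% of all core regions. The genes were NEUROD6, EMX2, BCL11B, CUX1, RORB, FOXP1, RASGRF2, POU3F3 and LMO4. NEUROD6 and EMX2 are transcription factors of the dorsal telencephalic lineage, CUX1 marks upper layers, RORB middle layers and BCL11B deep-layer projection neurons. CUX1 and RASGRF2 had 2 regions each. The median span of the 34 genes was 18.0 kb, close to the 17.2 kb of all placed genes. They nevertheless gathered more core regions per gene, with 166 for the 34 genes against 30877 for the 19038 placed genes. Of the 34 genes, 88.2% were nearest to another core region, against 67.7% of all placed genes. Only 3 of the 11 regions lay inside their gene. The width of the gaps around these genes was not measured, and its part in the share was not tested. The count of 9 genes moves with the number of regions: it was 15 without bat 1, 14 without bat 3, and 5 under a stricter rule of overlap for presence. These are 44.1%, 41.2% and 14.7% of the 34 genes, against 5.83%, 8.16% and 2.46% of all placed genes in the same alternatives. Of the core regions nearest to the 34 genes, 10.1%, 11.1% and 6.09% were cortex-only there, against 3.44%, 5.60% and 2.18% of all core regions.

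These 11 regions were among the weaker members. Their −log10 p in the weakest cortical library ran from 27.1 to 36.4, below the median of 38.0 over the cortex-only regions. The one nearest to RORB, at NW_023416306.1:41937910-41938736, lay 442 kb away and had 12.9 and 7.97-fold enrichment in 2A, 10.6 and 7.31 in ofM1, 11.3 and 8.26 in wM1, and 9.93 and 11.4 in PreM of bats 1 and 3. It had no non-brain interval. The one nearest to FOXP1, a forkhead factor of projection neurons, lay 164 kb away at NW_023416307.1:100765711-100766614, with 6.70- to 16.6-fold enrichment and no non-brain interval. At NEUROD6 the region NW_023416288.1:37956458-37957877 lay 48.4 kb away with 5.98- to 8.53-fold enrichment, and testis of bat 3 had an interval of 2.75-fold there. The region 39.5 kb from EMX2, at NW_023416309.1:51611526-51613432, had 5.58- to 9.49-fold enrichment in cortex and intervals in 4 non-brain lists, the highest of 3.23-fold in testis of bat 3. RASGRF2 held both of its regions inside the gene, and 1 of the 2 CUX1 regions lay inside that gene. BCL11B and POU3F3 were the farthest, at 600 and 542 kb. Over the 11 regions the cortical median fold ran from 4.65 to 10.3, and 3 had no non-brain interval.

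Lists of other cell types were shorter and had fewer core regions, so that their counts rest on 1 or 2 regions each. Of 20 placed interneuron markers, 2 (10%) were nearest to a member (3.70% of their 54 core regions), among them SOX6, a transcription factor of interneuron development. Of 18 striatal projection neuron markers, SIX3 alone was (1.89% of 53 core regions), and of 17 cerebellar markers EN1 and RORA were (5.56% of 36). The regions nearest to EN1, RORA and SIX3 had no striatal or cerebellar interval, as the choice of members required. The SIX3 region, at NW_023416310.1:26859289-26860239, had 21.99-fold enrichment in 2A of bat 1 and 8.82- to 13.5-fold in the other 7 cortical libraries. Of 9 endothelial markers CDH5 was nearest to 1 member, at 427 kb (2.38% of 42 core regions). None of 10 astrocyte, 11 oligodendrocyte-lineage and 10 microglial markers was. Those 3 lists had 25, 14 and 8 core regions in all, and with so few regions a count of 0 does not set them apart from the 2.30% of all core regions.

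Axon guidance genes and glutamate receptor and synapse genes were nearest to a member more often than the average gene, but they are long. Of 32 axon guidance genes, with a median span of 177 kb, 6 (18.8%) had 9 members, which were 4.29% of their 210 core regions. These were SLIT3, PLXNA2 and EPHA7 with 2 members each and NRP2, DCC and EPHA4 with 1. The DCC region, at NW_023416287.1:78829373-78830578, lay inside this netrin receptor gene, with 13.02- and 9.83-fold enrichment in 2A, 9.12 and 10.8 in ofM1, 10.6 and 9.65 in wM1, and 8.85 and 10.7 in PreM of bats 1 and 3, and no non-brain interval. One of the SLIT3 regions also lay inside its gene.

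Of 33 glutamate receptor and synapse genes, with a median span of 320 kb, 7 (21.2%) had 10 members, 5.10% of their 196 core regions. GRM3, a metabotropic glutamate receptor, held 1 member inside the gene. This region, at NW_023416288.1:12597745-12598837, had 6.89- to 10.7-fold enrichment. GRIA1, an AMPA receptor subunit, had 2 members, at 129 and 286 kb. CNTNAP2, a neurexin-family adhesion protein, held 2 inside the gene, and the kainate receptor genes GRIK2 and GRIK3 and the postsynaptic scaffold gene DLGAP1 had 4 in all. Of 19 activity-regulated genes, JUN alone was nearest to a member, at 142 kb (1.69% of 59 core regions).

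**Figure D5:**
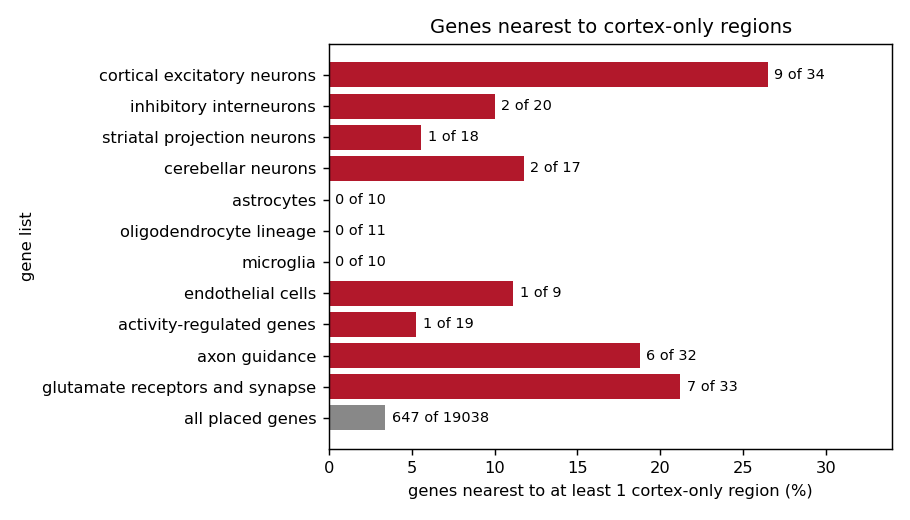
Percent of the placed genes of each list that are nearest to at least 1 cortex-only region, with the counts beside the bars and all 19038 placed genes in grey (3.40%). Cortical excitatory neuron markers have the highest percent (26.5%), and the astrocyte, oligodendrocyte and microglia lists, which have few core regions, have none. The percent is not adjusted for the number of core regions per gene.

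Differences between cortical areas did not enter the choice of regions, but the scores compared come from the same −log10 p, which had to rank in the top 50000 of every library. This limits how far a cortex-only region can differ between areas. For each library the core regions were ranked by −log10 p and the ranks turned into normal scores, which are in SD units over the 30896 core regions. With limma and Benjamini-Hochberg adjustment over the 30896 regions, 0 cortex-only regions passed an adjusted p of 0.05 in 2A against the motor areas, 0 in ofM1 against wM1 and 0 in PreM against primary motor cortex. The share called among all core regions was 0% in each contrast. At an unadjusted p under 0.05 there were 35 cortex-only regions (4.92%; 2.3% of all core regions), 15 (2.11%; 0.835%) and 51 (7.17%; 2.53%) in these contrasts in turn. Each area had 2 libraries, and the scores were cut by the choice of regions. A count of 0 therefore does not show that the areas were alike, and no conclusion on area differences is drawn from these counts. The median score difference of the cortex-only regions was 0.12, 0.07 and 0.12 in the 3 contrasts, against 0.01, 0.00 and 0.00 over all core regions. In the first contrast the 2A libraries stood apart from each other. Their median score at the cortex-only regions was -0.53 in bat 1 and -1.06 in bat 3, the highest and the lowest of the 8 libraries, and the other 6 lay between -0.92 and -0.66.

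The likeness of libraries over the cortex-only regions was described by the Spearman correlation of the same ranks, which are cut at 50000 by the choice of regions. It ran from 0.293 to 0.405 (median 0.358) in the 4 pairs of the same area in different bats, from 0.323 to 0.729 (median 0.482) in the 12 pairs of different areas of the same bat, and from 0.164 to 0.435 (median 0.342) in the 12 pairs of different areas of different bats. The 3 ranges overlapped, and the 28 pairs share 8 libraries. Over the other core regions the medians of these 3 kinds of pair were higher, at 0.769, 0.880 and 0.794 in turn. This description was added after the data were seen.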

How the data were processed

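ATAC-seq and RNA-seq were deposited for 20 and 12 libraries. Only ATAC-seq was used here, since the transcript tables carry no positions. Per the submitters' processing notes, Bowtie2 and MACS2 were used, with roles, settings and genome build not given in the sources used here. Each library has its own peak list as deposited by the authors, in narrowPeak form, and animals were not pooled. In the deposited lists, column 7 is the fold enrichment of a peak, a ratio to background as the caller set it, while columns 8 and 9 hold −log10 p and −log10 q. Of the 20 lists, 15 stop at 300000 rows. No read depth goes with the lists, so depth is unknown.

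Rows with the same interval were collapsed to the highest −log10 p, and overlap was at least 1 base. Positions are given from 1. The members and gene lists were chosen with earlier results of these data known. Named were the 10 regions with the highest −log10 p in their weakest cortical library, 2 regions on each side of the threshold, the nearest genes of the 10, genes with at least 3 members and list genes with at least 1; others are marked as chosen after their values were seen. The nearest gene is by distance to the gene span. The gene table of assembly mRouAeg1.p was placed by a match to core regions within 100 bases, accepted with at least 10 genes and 2 times the next scaffold; 20 runs were placed and 6 were not. Gene starts had been planned, but without strand either end was used.

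Area contrasts were fitted with limma 3.58.1 in R 4.3.3 (eBayes, 2-sided, Benjamini-Hochberg, 0.05) on all 8 cortical libraries. The main fit had 1 term per area and no term for the animal, which was added only in the replicate block. It was tested on simulated scores, where most of the planted differences were not called. Other steps used Python 3.11.15. The limma p-values measure the spread between the libraries of the 2 animals within areas. The sign-flip p-values take 6 libraries as units, which are 3 tissues of the same 2 animals, and do not measure the spread between animals. The numbers pair the libraries, since equal numbers are the same animal: differences between bats 1 and 3 correlated between areas with r of 0.0388 to 0.615. Alternatives changed the number of top intervals, the rules for presence, absence and overlap, the measure, the model and the libraries. Sequence motifs were not analysed here. Some items that the naming rule covers are not reported here.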

Additional observations from a re-analysis of the deposited data

How the results depend on the processing

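The number of cortex-only regions followed the thresholds. It was 37 with the top 25000 intervals per library and 4575 with the top 100000, 3982 where absence meant no top interval, and 13582 where presence meant any deposited interval. Leaving out a bat gave 1289 to 2068. The mean share with an interval in liver, muscle and testis moved with them. It was 31.1% in muscle and 32.4% in testis with the top 25000, 14.8% in muscle with the top 100000, 32.5% in muscle and 34.3% in testis with no top interval as absence, and 13.2%, 13.1% and 15.9% in liver, muscle and testis with any interval as presence. Counting only the top 50000 non-brain intervals gave 4.50%, 3.02% and 2.46%. Without 1 bat, muscle gave 17.3% to 20.4%, where a single library per tissue remained. The share within 1 kb of a gene end was 5.41% with the top 25000. The cause of these shifts was not tested.

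The lower non-brain share of cortex-only regions kept its direction in every alternative run, from -57.2 points with the top 25000 to -8.33 points against core regions with a cerebellar and no striatal interval. Without bat 1 or bat 3 it was -46.7 to -43.8 points, each with an exact p of 0.25, the smallest that 3 libraries allow. In the area contrasts 0 cortex-only regions were called under each of 13, 14 and 14 alternatives, including the replicate block, under which the pairing by animal left 0 called and 67 (9.42%), 28 (3.94%) and 87 (12.2%) at an unadjusted p under 0.05, against 5.06%, 1.86% and 5.42% of all core regions. These scores come from the same −log10 p that chose the regions, so no conclusion on area differences is drawn from these shares. The fit of 2A against motor cortex on the compared libraries alone is the fit of all 8 and was not repeated. Where a fit left an area with 1 library, that library was assumed to vary like the others. Of the 11 gene lists, the count moved by over 1.5 times in 8 with the top 25000 and in 9 with the top 100000. For cortical excitatory neuron markers it was 0 and 22 genes in these. It was 22 with no top interval as absence and 27 with any interval as presence. Of the 34 markers these are 0%, 64.7%, 64.7% and 79.4%, against 0.194%, 15.2%, 13.5% and 30.2% of all placed genes. Of the core regions nearest to the markers, 0%, 10.5%, 31.3% and 18.5% were cortex-only in turn. Among all core regions the shares were 0.252%, 7.18%, 12.9% and 12.9%. Unknown read depth limits every statement of absence: no listed interval does not show closed chromatin.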
